A study of Mus musculus with 12 samples.

Results

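Fatty acid uptake and β-oxidation are carried out by the products of 44 genes examined here, which were chosen by name for their roles in bringing fatty acids into the cell, activating them and breaking them down in mitochondria and peroxisomes. For each gene, every peak of trimethylated lysine 4 of histone H3 (H3K4me3) that carried its name in the table of peaks was taken. Of the 44 genes, 41 had a peak, and each of these had exactly 1, so that 41 of 15848 peaks in all are described. The mark was mapped by chromatin immunoprecipitation followed by sequencing (ChIP–seq), and the chromatin came from nuclei of cardiomyocytes (CMs), the contractile cells of the heart, of adult mice. The control group, Ctrl_Cre, comprised 3 libraries from αMHC-Cre-positive mice with intact *Cpt1b* alleles, and the mutant group, Cpt1b_cKO, comprised 3 libraries from αMHC-Cre-positive mice with both *Cpt1b* alleles floxed. Both groups thus carried the Cre transgene, which is driven by a CM promoter and was active from embryonic stages, so the mutant CMs had lacked *Cpt1b* long before the adult hearts were sampled. The nuclei were sorted from ventricles with an antibody against PCM1, and neither the labels nor the methods give the exact age of these mice. *Cpt1b* encodes the muscle form of the outer mitochondrial membrane enzyme that commits long-chain fatty acids to import, and the comparison asks how the histone mark at the genes around this step differs when import is blocked.

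Fatty acids reach the heart as lipoprotein triglycerides or bound to albumin, are released at the capillary wall, cross the cell membrane and are linked to coenzyme A. Long-chain acyl-CoA enters mitochondria through the carnitine shuttle and is then shortened in repeated cycles of dehydrogenation, hydration, a further dehydrogenation and thiolysis, which yield acetyl-CoA and reduced electron carriers. Peroxisomes shorten very long and branched chains by related enzymes. H3K4me3 marks active promoters, and in CMs broad domains of the mark are known from genes of cell identity.

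H3K4me3 is commonly found at promoters rich in CpG dinucleotides. The promoters below are shown because the results turn on their peaks: *Hadhb*, *Hadh* and *Mlycd* had the members' smallest p-values among peaks whose 2 groups did not overlap and *Acadm* is the best-known gene of the pathway and had nearly equal values in both groups. They are RefSeq sequences of GRCm38.p6 from 250 bases before to 50 bases after the gene start, written 5′ to 3′ on the strand of the gene, with CpG in capitals. *Hadhb* lies at chr5:30155003-30155302 on the plus strand, *Hadh* at chr3:131272052-131272351 on the minus strand, *Mlycd* at chr8:119394644-119394943 on the plus strand and *Acadm* at chr3:153944594-153944893 on the minus strand.
Hadhb: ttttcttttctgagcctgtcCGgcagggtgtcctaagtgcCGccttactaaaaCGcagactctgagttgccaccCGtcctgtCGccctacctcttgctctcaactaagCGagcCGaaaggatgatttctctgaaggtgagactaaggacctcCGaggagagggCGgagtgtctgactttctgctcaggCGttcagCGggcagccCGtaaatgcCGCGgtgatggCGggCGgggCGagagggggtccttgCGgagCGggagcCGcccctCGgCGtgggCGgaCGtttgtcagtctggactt
Hadh: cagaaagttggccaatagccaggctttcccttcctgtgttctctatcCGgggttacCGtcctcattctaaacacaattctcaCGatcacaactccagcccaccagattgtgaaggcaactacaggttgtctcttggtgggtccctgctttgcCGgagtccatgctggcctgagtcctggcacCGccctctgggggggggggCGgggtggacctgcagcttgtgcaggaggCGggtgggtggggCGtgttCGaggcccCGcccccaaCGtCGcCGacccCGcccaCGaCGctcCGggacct
Mlycd: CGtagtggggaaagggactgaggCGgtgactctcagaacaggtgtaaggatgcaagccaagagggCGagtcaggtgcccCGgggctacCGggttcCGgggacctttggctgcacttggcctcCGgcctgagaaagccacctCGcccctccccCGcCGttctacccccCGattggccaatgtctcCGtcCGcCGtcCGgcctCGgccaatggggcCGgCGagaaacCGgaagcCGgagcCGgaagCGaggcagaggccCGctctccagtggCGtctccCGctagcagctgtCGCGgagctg
Acadm: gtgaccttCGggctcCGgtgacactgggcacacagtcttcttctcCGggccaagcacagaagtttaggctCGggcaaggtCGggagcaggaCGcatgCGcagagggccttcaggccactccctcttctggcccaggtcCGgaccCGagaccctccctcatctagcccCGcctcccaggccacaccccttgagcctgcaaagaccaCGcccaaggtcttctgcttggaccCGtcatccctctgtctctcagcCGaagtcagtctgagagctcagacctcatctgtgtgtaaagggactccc
CpG occurred 24 times in the *Hadhb* stretch, 17 times in that of *Hadh*, 27 times in that of *Mlycd* and 13 times in that of *Acadm*. The *Hadhb* stretch also holds the start of *Hadha*, which encodes the partner subunit of the mitochondrial trifunctional protein and runs the opposite way. The annotated starts of *Hadha* and *Hadhb* lie at bases 160 and 246 of the printed sequence, 86 bases apart, so that both genes share 1 peak. RefSeq promoters could be matched to 34 of the 41 genes. Their median was 17 CpG, and that of all 32851 RefSeq promoters was 7. The 32851 were not selected for a peak, whereas all 34 genes had one, so this contrast is not particular to the pathway. Of the 34 promoters, 27 lay inside the peak of their gene, and that of *Cd36* lay 52851 bases from the gene start used here.

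Around the summits of the peaks, CpG was less frequent at these genes than at named peaks in general. In a window of 1001 bases around the summit, the median was 49 CpG at the 41 member peaks and 66 at the 11331 tested peaks with a gene name, and the GC content was 56.3% and 60.2%. The range was wide, from 3 CpG at *Cd36* to 116 at *Mlycd*. At *Cd36* the observed-to-expected ratio of CpG was 0.096, and the same ratio was 0.937 at *Mlycd*. A pair of sequence elements bound by nuclear receptors of this pathway were searched on both strands of these windows. The DR1 element, AGGNCA repeated with 1 base between the copies and the type of site bound by PPAR with RXR, was found in 1 of 41 member windows and in 1% of all tested windows. The single match was at *Acads*, 229 bases downstream of the gene start (chr5:115119091-115119143, plus strand, GRCm38.p6), with the repeat in capitals.
Acads: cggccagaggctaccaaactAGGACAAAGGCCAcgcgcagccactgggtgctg
The element TNAAGGTCA, the type of site bound by oestrogen-related receptors, was found in the windows of *Acsl6* and *Pex5*. That is 4.88% of member windows, where the share of all tested windows was 3.57%. At tested peaks with a gene name, DR1 was found in 0.812% of windows and TNAAGGTCA in 3.19%. Such matches of letters are a description and not evidence of binding.

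Peaks at these genes tended to be wide, and the mark there tended to be strong in control CMs. Widths are those of peaks merged over both genotypes and do not describe controls alone. The median width was 2645 bases, against 1643 bases for tested peaks with a gene name. The median level in controls was 182 normalized counts against 121. Normalized counts are the authors' counts per peak divided by a size factor for each library, and levels per kilobase take them as sums over the peak. Broad peaks were defined as those above the 75th percentile of width of all tested peaks (2222 bases) and narrow peaks as those under the 25th percentile (1030 bases). By this division, 24 of the 41 peaks (58.5%) were broad, 14 were of medium width and 3 were narrow, whereas 28% of the tested peaks with a gene name were broad and 16.6% were narrow. Per kilobase of peak, the median control level was 77.4 normalized counts for the members and 69 for the tested peaks with a gene name. Levels per kilobase ranged from 29.4 at *Mlycd* to 123 at *Acad11*, an acyl-CoA dehydrogenase.

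The wide peaks extended into the genes. The peak reached a median of 509 bases upstream and 1630 bases downstream of the gene start, and it reached farther downstream than upstream at 40 of 41 genes, the exception being *Acaa1a*. The peak covered the gene start at 40 genes. At *Acsl6* it began 36 bases downstream of the start. A median of 55.8% of the peak was intronic, 25% exonic and 23% outside the gene. The widest peak was that of *Hadhb* (ENSMUSG00000059447), at chr5:30151266-30162702, which spanned 11436 bases. Next came those of *Acaa2* with 8309 bases, *Mlycd* with 7080 bases, *Lpl* with 6539 bases and *Cd36* with 6330 bases. Coordinates of peaks are given as in the table, on mm10.

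**Figure D1:**
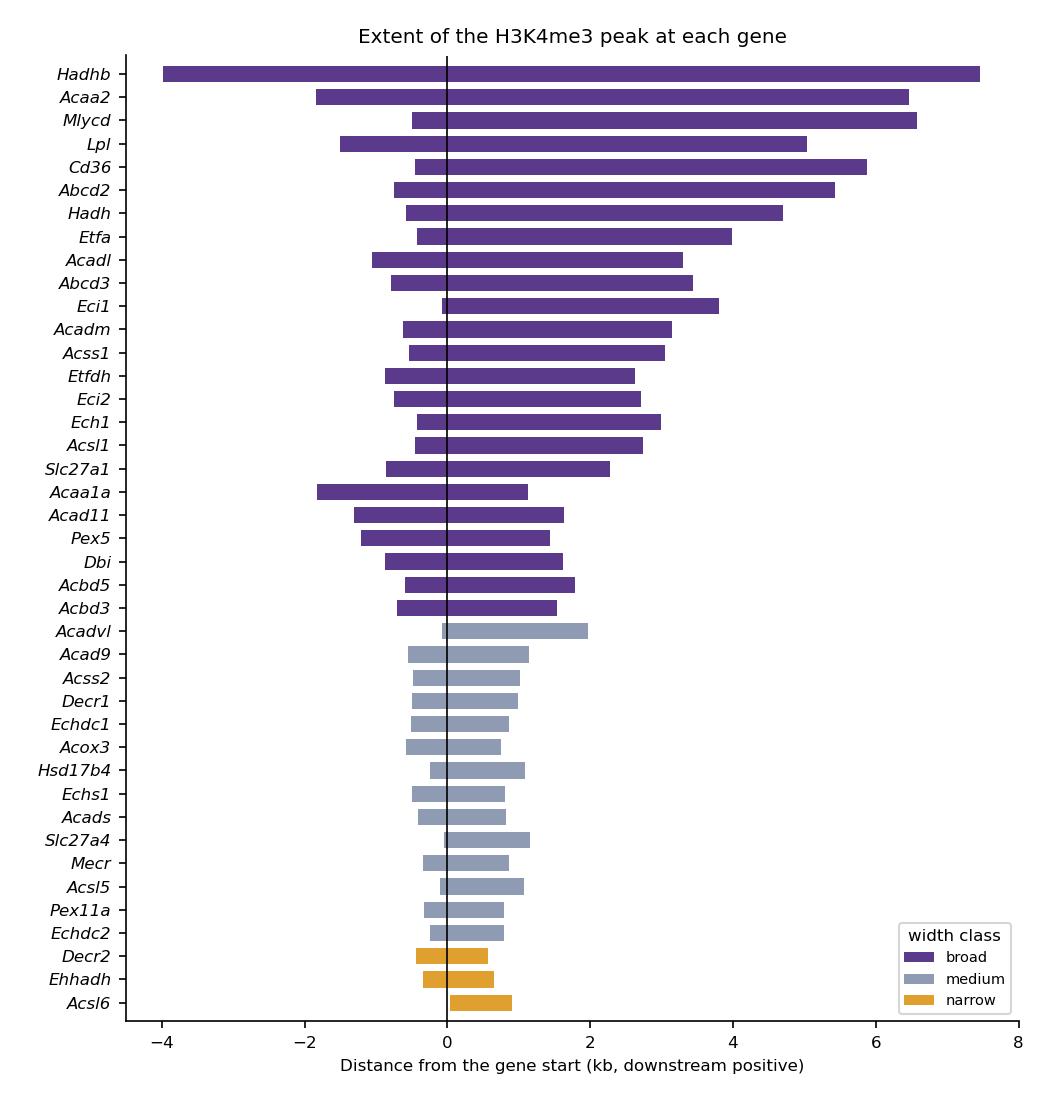
Extent of the H3K4me3 peak at the 41 genes, in kilobases from the gene start with downstream positive, ordered by width and coloured by width class. The widest bar belongs to *Hadhb* (11436 bases) and the shortest to *Acsl6* (874 bases), and nearly all bars reach farther to the right of the start than to the left.

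Some peaks besides that of *Hadhb* also contained the start of another coding gene. The peak of *Echs1* contained that of *Paox*, the peak of *Etfdh* that of 4930579G24Rik, the peak of *Acaa1a* that of *Myd88* and the peak of *Acss2* that of *Ggt7*. The peak of *Dbi* contained the start of 3110009E18Rik and the peak of *Pex11a* that of *Wdr93*. The signal at these peaks cannot be assigned to a single gene.

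Between the genotypes, differences at these genes were small, and none passed the test. At an adjusted p under 0.05 in limma, 0 of the 41 peaks were called, whereas 2.93% of the 15039 tested peaks were called, 1.11% as higher and 1.82% as lower in Cpt1b_cKO CMs. At an unadjusted p under 0.05, 5 of the 41 were higher and 0 were lower, where 5.84% of tested peaks were higher and 6.98% were lower. These 5 were *Hadhb*, *Hadh*, *Acaa2*, *Etfdh* and *Mlycd*. Log2 differences of Cpt1b_cKO minus Ctrl_Cre ranged from -0.31 at *Ehhadh* to 0.33 at *Hadhb*. Their median was 0.067, where that of all tested peaks was 0.0057 and that of tested peaks with a gene name was 0.019. The difference was above 0 at 26 members (63.4%) and at 54.7% of the tested peaks with a gene name.

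The error of each difference bounds what could have been missed. The standard error (SE) of the log2 difference lay between 0.09 and 0.21, with a median of 0.11. The 95% interval lay within a 1.5-fold change in either direction, that is within 0.58 on the log2 scale, at 39 of the 41 peaks, and within a 2-fold change at all 41. The exceptions at 1.5-fold were *Acsl6* and *Ehhadh*, whose intervals reached down to -0.64 and -0.67. Both peaks were narrow and among the lowest, with means of 55.7 and 83.3 normalized counts in controls.

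**Figure D2:**
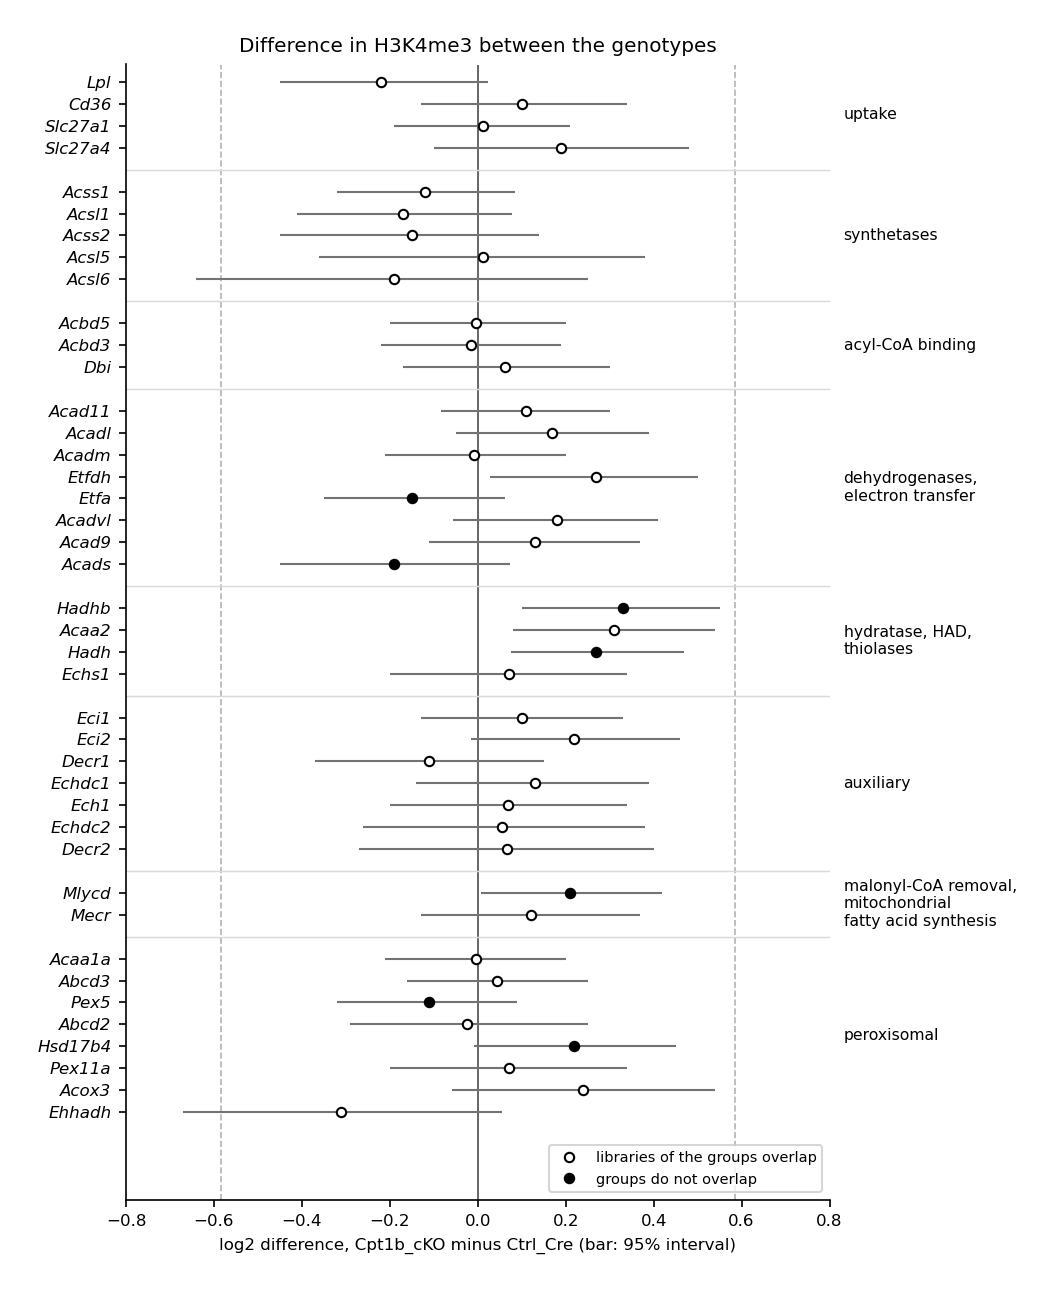
Log2 difference in H3K4me3, Cpt1b_cKO minus Ctrl_Cre, at the 41 genes grouped by role, with 95% intervals from limma; dashed lines mark a 1.5-fold change and filled points the peaks at which no Ctrl_Cre library overlaps a Cpt1b_cKO library. Points lie between -0.31 and 0.33, and 5 intervals lie wholly above 0.

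The genotypes did not overlap at 7 of the 41 peaks. All Cpt1b_cKO libraries were above all Ctrl_Cre libraries at *Hadhb*, *Hadh*, *Mlycd* and *Hsd17b4*, 9.76% of the members, and 7.8% of tested peaks showed this order. The reverse order was found at *Acads*, *Etfa* and *Pex5*, 7.32% of the members, where 8.46% of tested peaks showed it. Both shares were thus near those of all tested peaks.

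At the enzymes of the later steps of the mitochondrial cycle, all 4 measured genes had differences above 0, with a median of 0.29, and 3 of them were among the 5 with an unadjusted p under 0.05. None was called. *Hadhb* encodes the β-subunit of the trifunctional protein, which carries the long-chain thiolase. Its peak had 658, 597 and 661 normalized counts in Ctrl_Cre replicates 1 to 3 and 759, 924 and 733 in Cpt1b_cKO replicates 1 to 3. Every mutant library exceeded every control library, and the spread was wider among the mutants, with means of 639 ± 36.1 and 805 ± 104 (SD, n = 3 per group). The log2 difference of 0.33 (SE 0.11) gave an adjusted p of 0.126 in limma. Under quantile normalization, which gives all libraries the same distribution of values, the difference was 0.38 (adjusted p = 0.00495). With that scaling *Hadhb* was the only member called, among 2.77% of all tested peaks, and over 15 alternatives its adjusted p ranged from 0.00495 to 0.382. Because *Hadha* starts within the same peak, these values hold for the shared promoter of both subunits.

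*Hadh*, the hydroxyacyl-CoA dehydrogenase for medium and short chains, had a peak of 5279 bases at chr3:131267401-131272680. It held 268, 284 and 280 normalized counts in the Ctrl_Cre libraries and 318, 369 and 322 in the Cpt1b_cKO libraries. The groups did not overlap, and the log2 difference was 0.27 (SE 0.10, adjusted p = 0.162). *Acaa2* encodes the mitochondrial 3-ketoacyl-CoA thiolase. Its peak had 370, 337 and 365 normalized counts in the Ctrl_Cre libraries and 454, 518 and 368 in the Cpt1b_cKO libraries. Cpt1b_cKO replicate 3 lay within the range of the controls while the other mutant libraries lay above it. The log2 difference was 0.31 (SE 0.11, adjusted p = 0.176). Without Cpt1b_cKO replicate 3, *Acaa2* was called in limma at a log2 difference of 0.44 (adjusted p = 0.0317), in a fit that called 1.64% of all tested peaks and no other member. Without Cpt1b_cKO replicate 2, the difference was 0.19 (adjusted p = 0.536). Over 15 alternatives its adjusted p ranged from 0.0317 to 0.536. *Echs1*, the short-chain enoyl-CoA hydratase, had control values of 112 to 163 and mutant values of 138 to 149 normalized counts, which overlapped, and its log2 difference was 0.07 (SE 0.13).

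The acyl-CoA dehydrogenases open each cycle and are divided by chain length. Of the 8 measured genes of this role, which includes the acceptors of their electrons, 5 had differences above 0 and 3 below, and 0 were called. *Acadvl*, for very long chains, had 151, 184 and 155 normalized counts in the Ctrl_Cre libraries and 177, 205 and 172 in the Cpt1b_cKO libraries. *Acadl*, for long chains, had 289, 302 and 320 against 331, 398 and 301. In both cases the groups overlapped, through Ctrl_Cre replicate 2 at *Acadvl* and through Cpt1b_cKO replicate 3 at *Acadl*, and the log2 differences were 0.18 (SE 0.11) and 0.17 (SE 0.10). With 1 library left out, that of *Acadvl* ranged from 0.10 (without Cpt1b_cKO replicate 2) to 0.27 (without Ctrl_Cre replicate 2), and that of *Acadl* from 0.057 (without Cpt1b_cKO replicate 2) to 0.26 (without Cpt1b_cKO replicate 3). *Acadm*, for medium chains, had 258, 246 and 266 normalized counts in the Ctrl_Cre libraries and 256, 279 and 232 in the Cpt1b_cKO libraries. The *Acadm* values were intermixed, and the 95% interval of the log2 difference of -0.0089 ran from -0.21 to 0.20. *Acads*, for short chains, was among the lower genes, with 120, 107 and 117 normalized counts in the Ctrl_Cre libraries and 95, 102 and 104 in the Cpt1b_cKO libraries. All its mutant libraries lay below all controls, yet the log2 difference was -0.19 (SE 0.13, adjusted p = 0.595). Estimates for the 4 chain-length dehydrogenases thus fell on both sides of 0. *Acad9*, which also serves in the assembly of respiratory complex I, and *Acad11* had log2 differences of 0.13 and 0.11, with overlapping groups.

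The estimates for the electron acceptors also lay on both sides of 0. *Etfdh* encodes the membrane protein that passes electrons from the electron transfer flavoprotein to ubiquinone. Its peak had 290, 202 and 267 normalized counts in the Ctrl_Cre libraries and 285, 316 and 302 in the Cpt1b_cKO libraries. Ctrl_Cre replicate 2 was lowest, and that value rests on 87 recovered counts, since 1 count in this shallow library is worth more than in the others. The log2 difference was 0.27 (SE 0.11, adjusted p = 0.31) and ranged over 15 alternatives from 0.11, without Ctrl_Cre replicate 2, to 0.37. *Etfa*, the α-subunit of the flavoprotein, had values of 235 to 268 in the Ctrl_Cre libraries and of 206 to 233 in the Cpt1b_cKO libraries. These ranges did not overlap, and the log2 difference was -0.15 (SE 0.10). *Etfb*, its partner subunit and not itself among the 44 genes, starts in a peak named Gm45233, which had a log2 difference of -0.12 (SE 0.10).

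At the entry of the pathway, the peaks of *Lpl* and *Cd36* were among the strongest by counts summed over the peak. By these sums they ranked above 99.7% and 98.9% of tested peaks with a gene name. Both peaks were wide, at 6539 and 6330 bases, which raises such sums. Per kilobase, the control level at *Cd36* was 74.3 normalized counts, under the members' median of 77.4. The median of tested peaks with a gene name was 69. The level per kilobase at *Lpl* was above both medians. *Lpl* encodes lipoprotein lipase, which releases fatty acids from circulating triglycerides. It had 668, 586 and 731 normalized counts in the Ctrl_Cre libraries and 587, 647 and 481 in the Cpt1b_cKO libraries. The ranges overlapped, with Cpt1b_cKO replicate 3 lowest, and means were 662 ± 72.7 and 572 ± 84.1 (SD, n = 3 per group). The log2 difference was -0.22 (SE 0.12), and its adjusted p of 0.451 in limma did not pass. It was -0.10 without Cpt1b_cKO replicate 3, -0.14 without Ctrl_Cre replicate 3 and -0.31 without Cpt1b_cKO replicate 2. *Cd36*, the fatty acid translocase of the cell membrane, had 448, 465 and 498 normalized counts in the Ctrl_Cre libraries and 485, 614 and 431 in the Cpt1b_cKO libraries. The mutant libraries lay on both sides of the controls, and the log2 difference was 0.10 (SE 0.11). Without Cpt1b_cKO replicate 2 it was -0.039. The fatty acid transport proteins *Slc27a1* and *Slc27a4* had log2 differences of 0.013 (SE 0.10) and 0.19 (SE 0.14), with overlapping groups. *Gpihbp1*, which holds lipoprotein lipase on the capillary endothelium, had no peak, and the nearest peak began 19172 bases from its start.

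Among the synthetases, which link acids to coenzyme A, 4 of 5 genes had differences below 0, with a median of -0.15, and 0 were called. *Acsl1*, the main long-chain acyl-CoA synthetase of the heart, had 182, 198 and 147 normalized counts in the Ctrl_Cre libraries and 146, 165 and 155 in the Cpt1b_cKO libraries. The groups overlapped through Ctrl_Cre replicate 3, and the log2 difference was -0.17 (SE 0.12) with a 95% interval from -0.41 to 0.077. It was -0.076 without Ctrl_Cre replicate 2 and -0.29 without Ctrl_Cre replicate 3. The mitochondrial acetyl-CoA synthetase gene *Acss1* was the strongest of the role per kilobase, at 99.2 normalized counts in controls, and *Acsl1* the weakest, at 55.1. *Acss1* and *Acss2*, the nuclear and cytosolic form, had log2 differences of -0.12 (SE 0.10) and -0.15 (SE 0.14). *Acsl5* had a difference of 0.013 (SE 0.18) and *Acsl6* of -0.19 (SE 0.21), the least precise value of all members. The acyl-CoA binding proteins *Dbi*, *Acbd3* and *Acbd5* had log2 differences between -0.015 and 0.062, all with overlapping groups.

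*Mlycd* encodes malonyl-CoA decarboxylase, which removes malonyl-CoA, the inhibitor of the enzyme that *Cpt1b* encodes. Its peak at chr8:119394380-119401460 combined great width with the lowest level per kilobase of all members. It held 206, 193 and 225 normalized counts in the Ctrl_Cre libraries and 244, 238 and 240 in the Cpt1b_cKO libraries. The mutant libraries were closely grouped and all above the controls, and the log2 difference of 0.21 (SE 0.10) gave an adjusted p of 0.361 in limma. *Mecr*, an enoyl reductase of mitochondrial fatty acid synthesis, had a difference of 0.12 (SE 0.12).

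Of the 7 auxiliary enzymes, which handle unsaturated fatty acids and side products, 6 had differences above 0 and 0 were called. The isomerase gene *Eci2* had the largest, 0.22 (SE 0.12), from 168 to 235 normalized counts in the Ctrl_Cre libraries and from 212 to 246 in the Cpt1b_cKO libraries. The ranges overlapped, and the adjusted p was 0.433 in limma. The reductase gene *Decr1* had the lowest, -0.11 (SE 0.13). *Eci1*, *Ech1*, *Decr2*, *Echdc1* and *Echdc2* lay between 0.056 and 0.13.

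The peroxisomal genes were split evenly, with 4 differences above 0 and 4 below. *Ehhadh*, the bifunctional hydratase and dehydrogenase of straight chains, had the lowest difference of all members. Its narrow peak had 87, 95 and 68 normalized counts in the Ctrl_Cre libraries and 78, 66 and 57 in the Cpt1b_cKO libraries. The groups overlapped at Ctrl_Cre replicate 3, and the log2 difference was -0.31 (SE 0.18, adjusted p = 0.491). It was -0.20 without Cpt1b_cKO replicate 3. *Hsd17b4*, the bifunctional enzyme that also serves branched chains, had 137, 137 and 129 normalized counts in the Ctrl_Cre libraries and 162, 164 and 145 in the Cpt1b_cKO libraries. Its groups did not overlap, and the log2 difference was 0.22 (SE 0.11, adjusted p = 0.415). *Acox3*, an oxidase of branched chains, had a difference of 0.24 (SE 0.15). *Abcd2*, a transporter of very long-chain acyl-CoA, had 204, 137 and 206 normalized counts in the Ctrl_Cre libraries and 180, 182 and 167 in the Cpt1b_cKO libraries. Its controls spread more widely than its mutants, the groups overlapped, and the difference was -0.025 (SE 0.13). The import receptor gene *Pex5* had a difference of -0.11 (SE 0.10) with groups that did not overlap, while *Abcd3*, *Pex11a* and the thiolase gene *Acaa1a* lay between -0.0042 and 0.07.

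**Figure D3:**
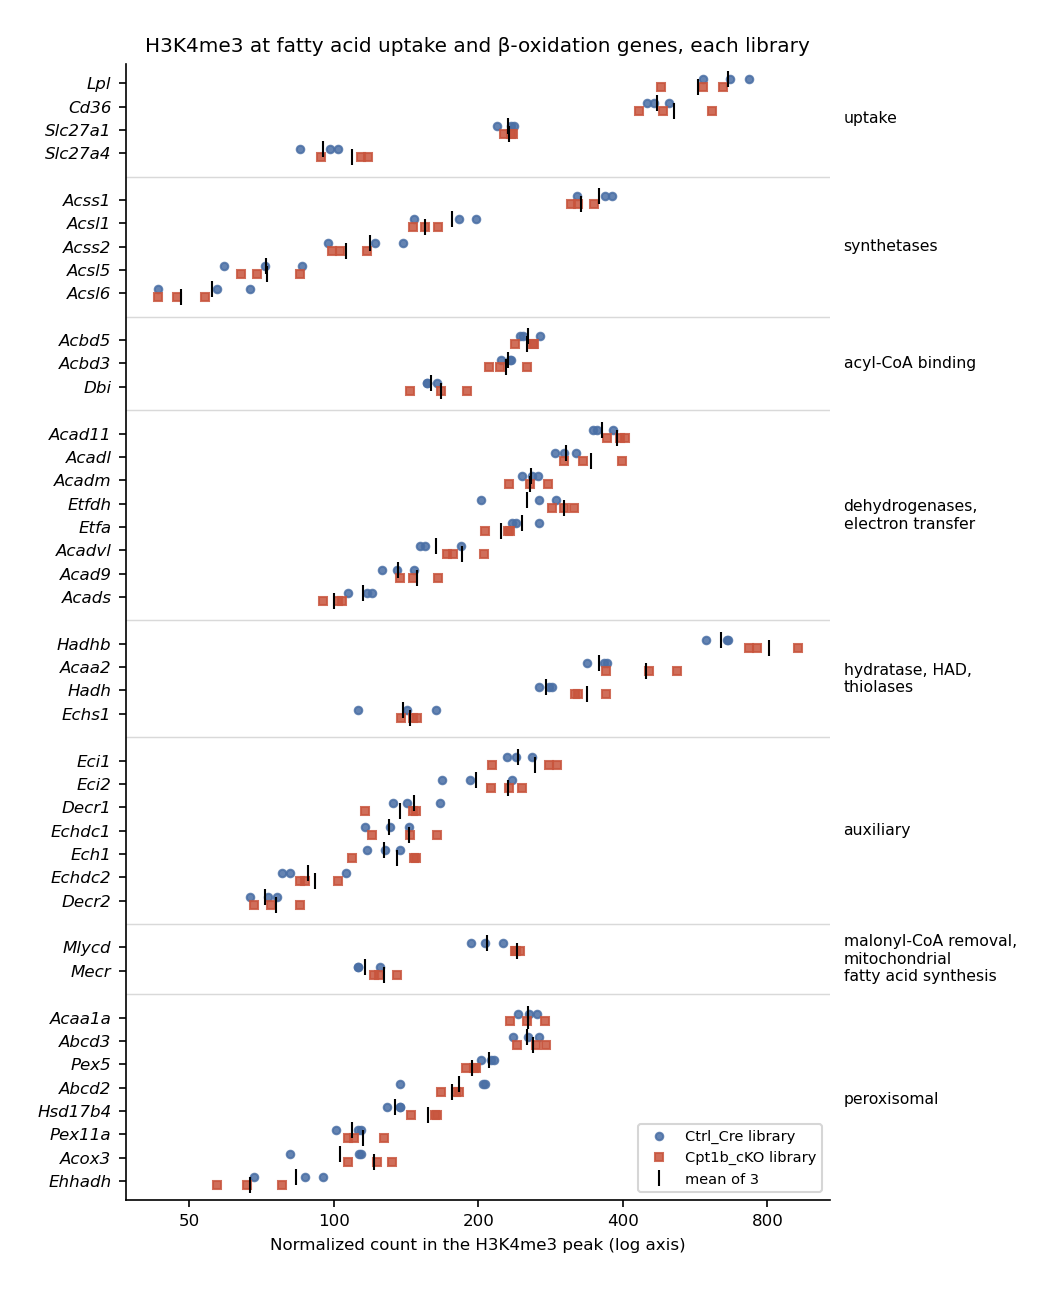
Normalized counts in the H3K4me3 peak of each of the 41 genes, on a log axis, for the 3 Ctrl_Cre libraries (circles) and the 3 Cpt1b_cKO libraries (squares), with means of 3 as vertical ticks. *Lpl* and *Hadhb* have the highest counts and *Acsl6* the lowest, as sums over peaks of unequal width. Per kilobase, the control level is 55.8 at *Hadhb* and 63.7 at *Acsl6*. The symbols of the groups are intermixed at most genes.

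The starts of *Acad10* and *Acadsb*, both acyl-CoA dehydrogenases without a peak of their own name, lay in peaks named for a neighbour that starts close by. The *Brap* peak over the start of *Acad10* had 191, 179 and 195 normalized counts in the Ctrl_Cre libraries and 192, 184 and 202 in the Cpt1b_cKO libraries. The *Ikzf5* peak over the start of *Acadsb* had 201, 202 and 219 against 202, 214 and 183. Both sets overlapped, and the log2 differences were 0.033 (SE 0.10) and -0.056 (SE 0.10).

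Libraries of the mutant group were not alike at these genes. The value of each gene on the log2 scale was set against its mean in the controls, and the median over the 41 genes was 0.12 in Cpt1b_cKO replicate 1, 0.10 in replicate 2 and -0.024 in replicate 3. The same medians were 0.02, -0.043 and 0.031 in the Ctrl_Cre libraries. Cpt1b_cKO replicate 3 thus lay within the controls. Over all tested peaks, the medians of the 6 libraries lay between 0.0019 and 0.011. The median difference of the members was 0.11 without Cpt1b_cKO replicate 3 and 0.021 without Cpt1b_cKO replicate 2.

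**Figure D4:**
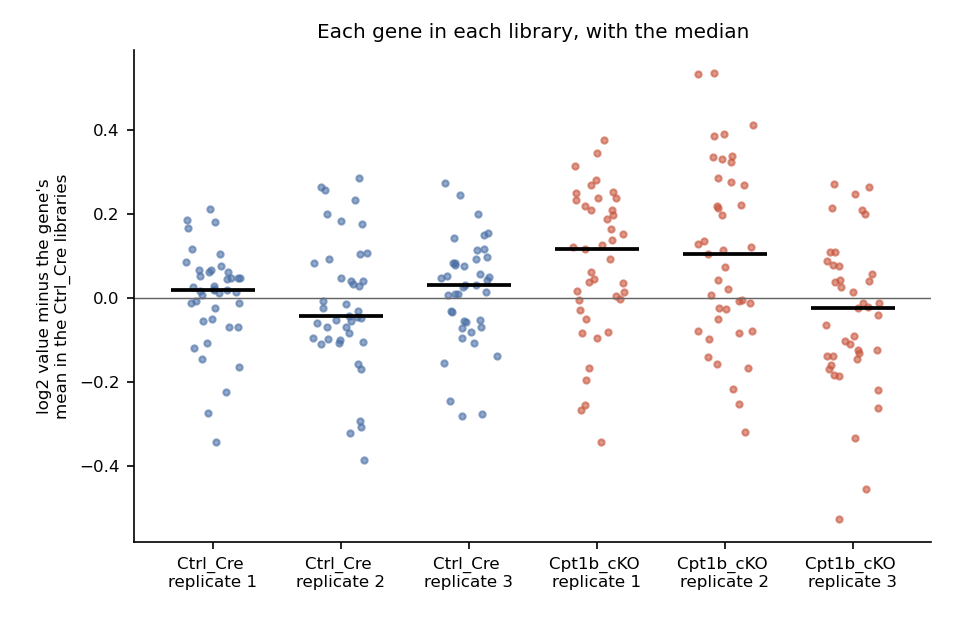
Each of the 41 genes in each library, as its log2(normalized count + 1) minus the mean of that gene in the 3 Ctrl_Cre libraries, with the median of each library as a bar. The medians of Cpt1b_cKO replicates 1 and 2 are 0.12 and 0.10, and that of Cpt1b_cKO replicate 3 is -0.024.

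Markers of cell types were examined for the same libraries. All 10 CM marker genes had peaks, 0 of their 11 peaks were called, and 10 of 11 had differences below 0. The summed level of these peaks was between 7177 and 8725 normalized counts in the Ctrl_Cre libraries and between 5434 and 7771 in the Cpt1b_cKO libraries, and the lowest sum belonged to Cpt1b_cKO replicate 3. Of markers of other cells, 3 of 10 endothelial genes had peaks, with sums of 128 to 207 in controls and 141 to 153 in mutants, and 1 of 9 fibroblast genes had a peak, with 58 to 69 and 56 to 63. Of 7 smooth muscle and pericyte genes, 4 had peaks, with sums of 163 to 261 in controls and 52 to 122 in mutants, and *Acta2* among them was called lower, at a log2 difference of -2.23 (limma, adjusted p = 7.36e-05). None of 7 leukocyte and 5 adipocyte markers had a tested peak. In pooled nuclei, a changed share of nuclei of a type and a changed mark per nucleus cannot be told apart, and the part of these shifts in the members' values was not tested. The libraries held from 763133 to 2766416 counts in peaks, the fewest in Ctrl_Cre replicate 2. The *Cpt1b* peak, which does not report the deletion itself, had 428, 407 and 436 normalized counts in the Ctrl_Cre libraries and 572, 689 and 568 in the Cpt1b_cKO libraries.

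Other genes of fatty acid metabolism, which act beside the 44 as regulators, carriers, thioesterases and kinases, included larger changes. Of 72 such genes, 55 had a tested peak, 6 were called higher and 0 lower in Cpt1b_cKO CMs, where 1.11% of all tested peaks were called higher and 1.82% lower. The median log2 difference of the 55 was 0.063. This list was drawn up with earlier results of these data known, so its count is a description. Angiopoietin-like 4 (*Angptl4*), an inhibitor of lipoprotein lipase, rose from 60, 98 and 61 normalized counts in the Ctrl_Cre libraries to 153, 190 and 222 in the Cpt1b_cKO libraries. The log2 difference was 1.38 (SE 0.17). *Slc25a20*, the carrier that exchanges acylcarnitine for carnitine across the inner membrane, rose by 0.49 (SE 0.11), and *Cpt1b* itself by 0.52 (SE 0.10). The thioesterase gene *Acot2*, the uncoupling protein gene *Ucp3* and the pyruvate dehydrogenase kinase gene *Pdk4* rose by 0.62, 0.59 and 0.66 on the log2 scale. Each of these 6 differences was larger than the largest of the 41 members, 0.33 at *Hadhb*. The 6 were picked for being called, while no member was called, so this order was largely fixed in advance. Over the whole lists, the median log2 differences were 0.063 for the other genes and 0.067 for the members. The calls of *Slc25a20* and *Pdk4* were lost without Ctrl_Cre replicate 1, Cpt1b_cKO replicate 1 or Cpt1b_cKO replicate 2, with differences of 0.49, 0.50 and 0.40 and of 0.54, 0.57 and 0.50, and limma without a trend called 0 of the 6. *Ppara* and *Ppargc1a*, which encode regulators of many of the 44 genes, had differences of 0.073 (SE 0.11) and -0.10 (SE 0.11), with overlapping groups. *Ppard* and *Esrra* had 0.00022 (SE 0.14) and -0.045 (SE 0.12), also with overlapping groups. *Rxra* had 171, 165 and 174 normalized counts in the Ctrl_Cre libraries and 140, 138 and 145 in the Cpt1b_cKO libraries. All its mutant libraries lay below all controls, an order shown by 8.46% of tested peaks. Its log2 difference was -0.27 (SE 0.11, adjusted p = 0.247 in limma).

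**Figure D5:**
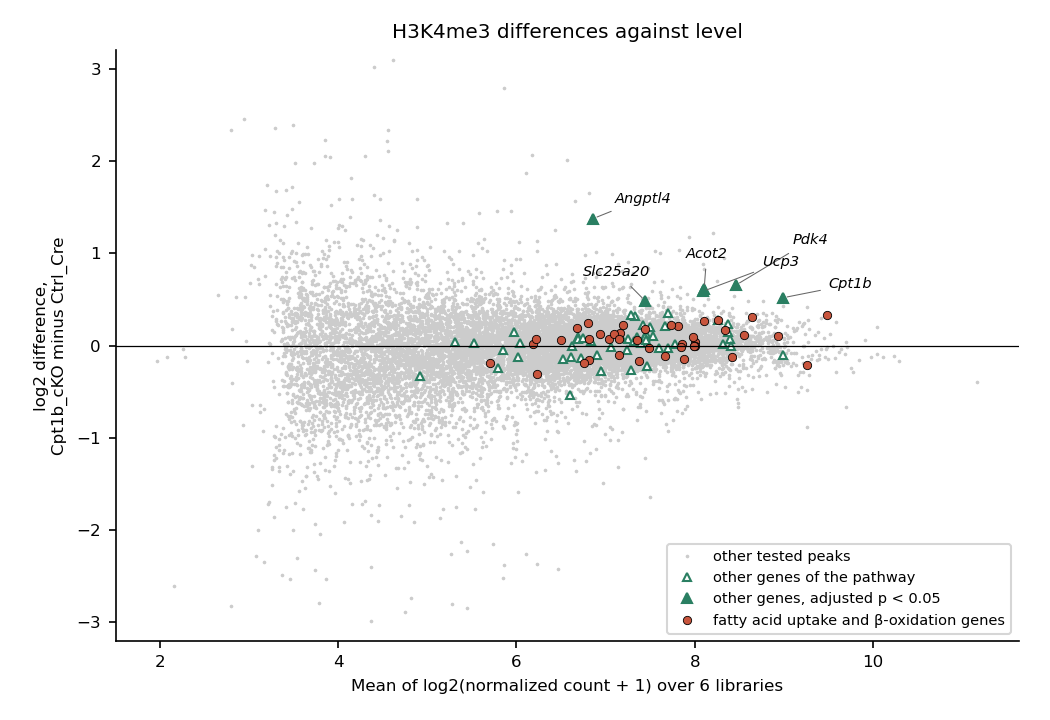
Log2 difference, Cpt1b_cKO minus Ctrl_Cre, against the mean level of every tested peak, with the 41 members as filled circles and other genes of fatty acid metabolism as triangles, filled where the adjusted p was under 0.05. The members lie between -0.31 and 0.33, and *Angptl4* stands at 1.38.

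The members were also divided by width. The 24 broad members had a median log2 difference of 0.053, where broad tested peaks with a gene name had 0.012, and 14 of the 24 were above 0. The 14 members of medium width had a median of 0.10, where medium peaks had 0.022, and 11 were above 0. The 3 narrow members had a median of -0.19, where narrow peaks had 0.029, and 1 was above 0. The 5 members with an unadjusted p under 0.05 all had broad peaks. Their SEs were 0.10 to 0.11, and those of the 3 narrow members were 0.16 to 0.21, so a small p-value was harder to reach at narrow peaks. Whether the difference depends on width was not tested.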

How the data were processed

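H3K4me3 ChIP–seq libraries, 3 of Ctrl_Cre and 3 of Cpt1b_cKO CMs, were used. The series also lists 6 input libraries, which have no column in the table and entered no test. The authors trimmed reads with Trimmomatic 0.39, aligned them to mm10 with STAR 2.6.1d, removed duplicates with Picard 2.21.7, called peaks against input with MUSIC, merged them into union peaks, took counts per peak from coverage tracks with bigWigAverageOverBed and normalized them with DESeq2 1.26.0. For each library, the deposited table holds the normalized count after rounding, and this column was treated as a score. The unrounded genotype means in the deposited table are a mean signal. The deposited log2 fold changes and p-values are the authors' own comparison and were not used, and the deposited fraction of each peak within the gene body was not used either. Size factors make every difference relative to the other peaks, so that a shift shared by all peaks is not visible. Union peaks give 1 width for both genotypes, and a peak over several genes carries the name of 1.

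Whole counts were recovered from the rounded values and the genotype means for 15848 of 15848 peaks (largest gap 1.3e-06), with 100% of simulated peaks recovered exactly. They served for depth and for 1 alternative. Counting error at the median peak was 15.6% in Ctrl_Cre replicate 2 and 8.36% to 10.9% in the others, and 3 counts correspond to normalized values from 1.95 to 6.97. These cover counting error only and take 1 count as 1 read, which the methods do not state.

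The 15039 peaks whose mean over the 6 libraries reached 10 were tested with limma 3.58.1 in R 4.3.3 (lmFit, eBayes with trend, two-sided) on log2(value + 1), with genotype as the only term and Benjamini–Hochberg adjustment over all tested peaks. Differences on this scale understate changes of low peaks. On simulated data with 200 of 15039 peaks changed 2-fold, 72.5% were recovered and 2.03% of calls were false. The simulation gave every peak the same fixed spread beyond counting error. That spread was not estimated from these libraries, so these percentages need not hold for the real peaks. Groups and replicate numbers come from the sample titles. Nothing in the labels says that a number is shared between groups, and deviations of same-numbered libraries correlated at 0.076, -0.081 and 0.11. The study's methods call replicates of in vivo work biological, but the labels do not tie libraries to mice, and p-values measure only the spread between these libraries.

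Positions and transcripts are from GENCODE vM21 and sequences from RefSeq GRCm38.p6. The members and lists were chosen with earlier results of these data known. Named with full values were members with an adjusted p under 0.05, members with an unadjusted p under 0.05 and no overlap between the groups, and 13 genes fixed by role, of which *Gpihbp1* had no peak. Values of other members, including *Acads* and *Hsd17b4* with all libraries, were chosen after they were seen.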

Additional observations from a re-analysis of the deposited data

How the results depend on the processing

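Over 15 alternatives (pseudocounts of 5 and 10, no filter, a mean of at least 50, quantile normalization, equal totals, leaving out each library, a replicate block, limma without a trend and limma-voom on recovered counts), 10 of the 13 named members kept their direction in every one. Without Ctrl_Cre replicate 1, Ctrl_Cre replicate 3 or Cpt1b_cKO replicate 3, the *Abcd2* difference turned to 0.068, 0.075 and 0.014 (range from -0.22 to 0.075 when a library was left out). Without Ctrl_Cre replicate 3 or Cpt1b_cKO replicate 3, that of *Acadm* turned to 0.017 and 0.059 (range from -0.074 to 0.059), and without Cpt1b_cKO replicate 2 that of *Cd36* turned to -0.039 (range from -0.039 to 0.22). The number of members called higher went from 0 to 1 under quantile normalization (*Hadhb*), ranged from 0 to 1 when a library was left out (*Acaa2*) and was 5 at an unadjusted p under 0.05. The number called lower was 0 throughout. The members' median log2 difference ranged from 0.021 to 0.11 when a library was left out. Of all tested peaks, 441 were called, 43 by limma without a trend, 503 by limma-voom, between 229 (without Ctrl_Cre replicate 1) and 431 when a library was left out, and 1929 at an unadjusted p under 0.05. The cause of these shifts was not tested. When replicate numbers entered the fit as a block, 370 peaks and 0 members were called, the members' median stayed at 0.067, and no call of a member changed. The numbers are not shown to pair the libraries, as the correlations of their deviations were not all above 0.1. Each member had 1 peak, so that taking the peak with the highest mean per gene gave the same values. At *Acsl6* and *Ehhadh*, narrow and low peaks, a 1.5-fold decrease lay within the 95% interval.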
